A study of Mus musculus with 24 samples.

Results

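Transit amplifying (TA) cells of mouse small intestinal crypts were compared between Smarcad1-KO and wild type (WT) animals by mRNA-seq. The comparison held 6 of the 24 libraries of the series, 3 from KO TA and 3 from WT TA. It was read from the KO and WT TA columns of the 4 deposited gene tables, which together named 82 genes. Of these, 15 were rows of the TA table (18.3%), meaning that they had passed the authors' DESeq2 limit of FDR 0.1 for KO against WT in TA cells. These 15 are called listed genes below, and the other 67 were listed for another cell type only. The 82 genes were themselves chosen for a change in some cell type, so a share of the 82 is not a share of all expressed genes.

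All groups were male mice on a C57BL/6 background. KO animals carried Smarcad1 fl/fl with the Villin-cre transgene, which is active throughout the intestinal epithelium, and loxP sites around exons 12 to 14 of Smarcad1, and came from a line founded by 1 targeted embryonic stem cell clone. All animals used for the TA sort, KO and WT, also carried a knock-in of Lgr5-EGFP-IRES-creERT2, whose GFP marks crypt base cells and dims as cells leave the base. TA cells were taken as GFP-medium, DAPI-negative cells of a crypt suspension, without the Epcam, CD31 and CD45 staining used for the sorts of villus enterocytes (AE) and colon epithelium (CO). Intestinal stem cells (ISC) were the GFP-high cells of the crypt suspension, and the paper states that ISC and TA were sorted at the same time. Which ISC and TA libraries share an animal is not given. The ages of the sorted animals were not given.

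Transit amplifying cells are the dividing progeny of the Lgr5-positive stem cells. They divide several times as they move up the crypt and then differentiate into absorptive enterocytes or into secretory cells. Smarcad1 is a chromatin remodelling ATPase of the SNF2 type, known for a part in keeping heterochromatin through DNA replication, a process that takes place in TA cells and not in villus enterocytes.

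The deposited values were log2 read counts normalised to total reads, given as 1 mean per group over 3 libraries. The tables gave no value per library, so no SD, interval or test of a difference could be computed here, and sequencing depth per sample is unknown. The listing itself, which rests on the authors' FDR, was the only statement used here that took the spread between libraries into account. The listed genes were chosen on this same contrast, so their differences in TA are given as a description. A log2 value of 0 equals 1 on the linear normalised scale. In bulk samples of sorted cells, fewer cells of a type and less RNA per cell cannot be told apart.

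The label of the sort could be checked on few genes. Ascl2, a transcription factor of the stem cell programme, had a level of 6.05 in WT ISC, 4.24 in WT TA and -0.18 in WT AE. The 6 enterocyte genes used here had a median level of 5.29 in WT ISC, 5.92 in WT TA and 7.92 in WT AE, and each of the 6 was lower in WT TA than in WT AE. Fzd5, the other stem cell gene with a row, had 7.43 in WT ISC, 8.10 in WT TA and 7.11 in WT AE, and Mep1a, of the enterocyte genes, was lower in WT TA (5.43) than in WT ISC (5.72). Thus Ascl2 and the median of the enterocyte genes were intermediate in WT TA, whereas Fzd5 and Mep1a were not. None of 15 proliferation genes, 11 enteroendocrine genes or 6 tuft cell genes had a row in any table, so the dividing state itself was not examined here.

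The targeted gene was examined first. The sequences of the loxP-flanked exons are shown because they define the KO allele. They were read from the principal GENCODE M21 transcript on GRCm38, on the plus strand. Exon 12 lies at chr6:65092495-65092594, exon 13 at chr6:65094131-65094190 and exon 14 at chr6:65094290-65094365. Capitals mark the 15 bases that encode the core of the ATP-binding loop of the enzyme, a run of glycine, any residue, glycine, lysine and then threonine or serine, which a search of the whole reading frame found 1 time.
Exon 12: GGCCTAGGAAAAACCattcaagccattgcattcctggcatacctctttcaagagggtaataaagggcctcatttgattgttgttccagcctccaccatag
Exon 13: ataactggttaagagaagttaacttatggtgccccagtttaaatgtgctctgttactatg
Exon 14: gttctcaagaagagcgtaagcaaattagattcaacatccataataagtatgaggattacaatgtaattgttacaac
The ATP-binding loop is thus encoded at the start of the deleted stretch. The 3 exons hold 236 bases, which leaves a remainder of 2 when divided by 3, so that splicing from exon 11 to exon 15 shifts the reading frame. In TA cells the level of Smarcad1 was 5.36 in WT and 4.49 in KO, a difference of -0.88, and the KO TA value was 54.4% of the WT value. The reads were counted over all exons of the gene, of which the deleted ones make up 4.57% of this transcript, so the value does not measure how complete the deletion was. Smarcad1 was the seventh highest of the 15 listed genes in WT TA when levels were compared per kilobase of exon. The length used was that of merged exons over all isoforms, 13322 bases against 5168 in this transcript, so the rank depends on it.

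Levels of the listed genes in WT TA spanned a wide range. On the log2 scale without length correction they ran from -1.82 for Cd244 to 8.75 for Itln1, with a median of 3.36. Per kilobase of merged exon, the 3 highest were Itln1 at 8.56, Clca4b at 6.19 and Mt1 at 5.96, followed by Aplp1 at 3.49 and Apobec3 at 3.29. The merged exon of Mt1, 1246 bases, spans its whole gene, so its level per kilobase may be too low and its order against Clca4b is uncertain. The 3 lowest per kilobase were Slfn4 at -0.38, Gsta3 at -0.69 and Cd244 at -4.10. Cd244 was the only listed gene with a WT TA level below 0 before length correction, whereas 14 of the 67 other genes were below 0.

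**Figure D1:**
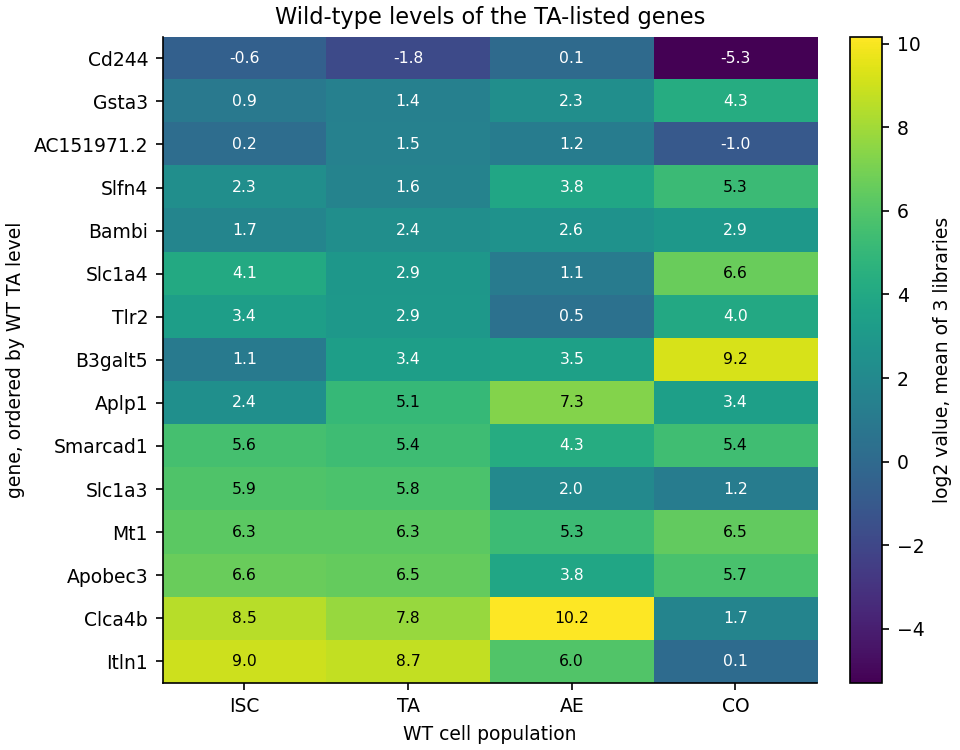
Log2 levels in the 4 WT populations (columns: ISC, TA, AE and CO) of the 15 genes listed for TA cells (rows, ordered by WT TA level), each number and colour being the authors' mean of 3 libraries. Itln1 goes from 8.75 in WT TA to 0.14 in WT CO and B3galt5 from 3.36 to 9.23, and since values are not per length, rows are to be read within a gene.

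The WT pattern of these genes along the crypt-to-villus axis was mixed. In 8 of the 15 the WT level was higher in TA than in AE and in 7 it was lower. The WT TA level lay nearer to that of ISC than to that of AE for 11 of the 15, against 64 of all 82 genes. Slc1a3 was a crypt gene in this respect, with WT levels of 5.88 in ISC, 5.79 in TA and 1.96 in AE. Aplp1 ran the other way, with 2.39 in WT ISC, 5.08 in WT TA and 7.27 in WT AE.

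Of the 15 listed genes, 10 rose in KO TA (12.2% of the 82) and 5 fell (6.10%). The 10 that rose were Cd244, AC151971.2, Bambi, Gsta3, Slfn4, Itln1, Mt1, Slc1a4, Aplp1 and Clca4b, and their differences ran from 0.58 to 3.39 with a median of 1.43. The 5 that fell were Tlr2, B3galt5, Slc1a3, Smarcad1 and Apobec3, with differences from -1.55 to -0.83 and a median of -0.90.

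**Figure D2:**
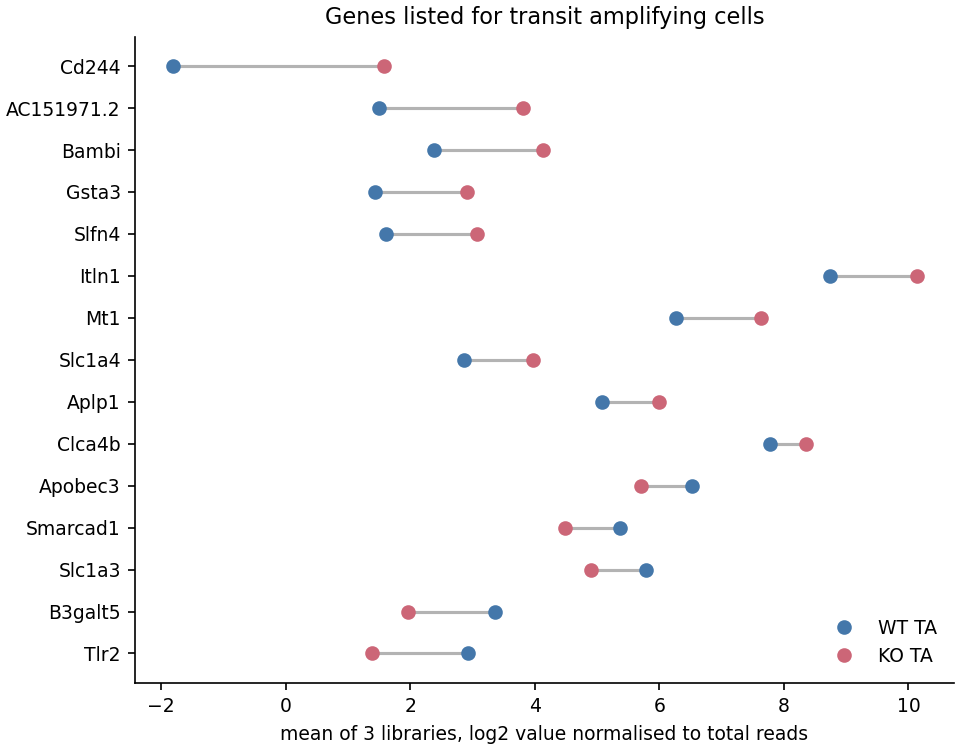
Log2 levels (x axis, mean of 3 libraries, normalised to total reads) of the 15 listed genes (y axis) in WT TA (blue) and KO TA (red), joined by a line and ordered by difference. Cd244 has the widest gap at 3.39 and Clca4b the narrowest at 0.58, and the 5 genes at the bottom are those with a lower KO value.

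Itln1 had the highest WT TA level of the listed genes per kilobase. Itln1 encodes intelectin 1, a lectin that binds microbial sugars and is secreted by Paneth and goblet cells. It lies at chr1:171518122-171535294 on the minus strand. Its level rose from 8.75 in WT TA to 10.13 in KO TA, a difference of 1.38 or 2.61-fold. Lyz1, the lysozyme of Paneth cells, was not listed for TA but had a difference of similar size, with levels of 9.12 in WT and 10.77 in KO and a difference of 1.64. These were the 2 genes with a row among 15 Paneth cell and antimicrobial genes. Spink4, a goblet cell product and the only one of 9 goblet cell genes with a row, had levels of 9.14 in WT TA and 9.12 in KO TA. Both Itln1 and Lyz1 were also abundant in WT ISC, at 8.97 and 9.69, and lower in WT AE, at 5.96 and 6.11. As the other 13 genes of the Paneth list had no row, the part of the number of Paneth cells in the sort was not tested.

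Clca4b, a member of the calcium-activated chloride channel regulator family, rose by the smallest amount of the listed genes. Its level was 7.78 in WT TA and 8.36 in KO TA, a difference of 0.58. It was 1 of 8 CLCA genes and the only one with a row. As 24.8% of its 50-base stretches also occurred in transcripts of other genes, foremost Clca4a, its value is uncertain.

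Mt1 encodes metallothionein 1, a small cysteine-rich protein that binds zinc and copper and whose transcription is induced by metals through the factor MTF-1. Its level rose from 6.27 in WT TA to 7.63 in KO TA, a difference of 1.36 or 2.56-fold. No other of 7 metallothionein and zinc transporter genes had a row. The Mt1 promoter is shown because it is the textbook example of a metal-responsive promoter among the listed genes. The window was taken from RefSeq on GRCm38.p6, chr8:94178839-94179138 on the plus strand, and runs from 250 bases before to 50 bases after the transcription start. Capitals mark matches to TGCNCNC, the core letters of the metal response element, searched on both strands with overlaps allowed.
Mt1 promoter: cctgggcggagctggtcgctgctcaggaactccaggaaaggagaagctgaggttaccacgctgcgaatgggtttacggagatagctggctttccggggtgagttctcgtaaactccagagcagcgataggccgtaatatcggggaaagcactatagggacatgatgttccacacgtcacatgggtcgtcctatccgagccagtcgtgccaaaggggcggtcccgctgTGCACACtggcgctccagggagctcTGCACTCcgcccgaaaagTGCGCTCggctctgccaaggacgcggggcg
The Mt1 window held 3 matches, all on the strand shown. The first lies before the annotated start used here and the others lie after it. At least 3 matches were present in 7.10% of the 32851 promoter windows of the table, and at least 1 in 51.0%. Of the 13 listed genes with a window, 8 had at least 1 match in any of their windows, 17 in all. This counts genes, some with more than 1 window, so it cannot be set against the share of windows. It is a description of these letters and not of factor binding. Gsta3, an alpha class glutathione S-transferase that conjugates glutathione to reactive compounds, also rose, from 1.43 in WT TA to 2.91 in KO TA, a difference of 1.48 or 2.80-fold. Its window held no match. It was the only one of 4 alpha class genes with a row, and it overlaps Gm28836 on the opposite strand.

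Bambi, a transmembrane pseudoreceptor that dampens BMP and TGF-beta signalling, rose from 2.38 to 4.13, a difference of 1.75 or 3.36-fold, and was the only one of 14 BMP and TGF-beta pathway genes with a row. BMP signals are known to increase from the crypt towards the villus. Bambi had levels of 1.72 in WT ISC, 2.38 in WT TA and 2.59 in WT AE. Aplp1, a relative of the amyloid precursor protein, rose from 5.08 to 6.00, a difference of 0.91. The KO TA level of Aplp1 thus lay below its WT AE level of 7.27.

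The 2 genes with a row among 7 SLC1 amino acid transporters moved in opposite directions, and both were listed. Slc1a4, a transporter of neutral amino acids such as serine and alanine, rose from 2.86 to 3.97, a difference of 1.10. Slc1a3, a glutamate and aspartate transporter, fell from 5.79 to 4.90, a difference of -0.90. On the deposited scale Slc1a3 thus stayed above Slc1a4 in KO TA. Per kilobase of merged exon, their levels were 0.89 for Slc1a4 and 2.70 for Slc1a3 in WT TA, and 1.99 and 1.80 in KO TA. The order of the 2 genes was reversed on that scale only, by group means without a spread. It depends on the length used, that of merged exons over all isoforms, which need not be that of the expressed transcript.

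B3galt5, a beta-1,3-galactosyltransferase that builds type 1 chains of glycolipids and glycoproteins, fell from 3.36 in WT TA to 1.96 in KO TA, a difference of -1.40, so that KO TA held 37.8% of the WT value. WT levels of B3galt5 were lowest in ISC (1.09), similar in TA (3.36) and AE (3.49) and highest in CO (9.23). The KO TA level of 1.96 was above the KO ISC level of 1.25. No other cell type listed B3galt5, and its differences there were 0.16 in ISC, 0.47 in AE and -0.18 in CO.

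Tlr2, the cell surface receptor for bacterial lipoproteins, had the largest fall of the listed genes. Its level was 2.93 in WT TA and 1.38 in KO TA, a difference of -1.55, or 34.1% of WT. Of 18 Toll-like receptors and adaptors, Tlr4 and Tnip1 were the others with a row, and neither was listed for TA. Tlr4, the lipopolysaccharide receptor, was near the bottom of the scale in both groups, at -4.57 in WT TA and -2.20 in KO TA, and Tnip1, an inhibitor of NF-kappaB signalling, had levels of 5.83 and 5.81.

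Apobec3, a cytidine deaminase that restricts retroviruses, fell from 6.53 in WT TA to 5.70 in KO TA, a difference of -0.83, or 56.2% of WT. It was the only one of 5 AID/APOBEC genes with a row. Its WT level was alike in ISC and TA, at 6.64 and 6.53, and lower in AE, at 3.84. Apobec3 is also known as an interferon-induced gene, and its upstream RefSeq window is shown because it was the only window of the 13 genes with a match to the core of the interferon response element, searched as GAAA, any 2 bases and GAAA. The window lies at chr15:79892158-79892457 on the plus strand of GRCm38.p6. Both strands were searched, and capitals mark the match, which is on the strand opposite to the one shown.
Apobec3 promoter: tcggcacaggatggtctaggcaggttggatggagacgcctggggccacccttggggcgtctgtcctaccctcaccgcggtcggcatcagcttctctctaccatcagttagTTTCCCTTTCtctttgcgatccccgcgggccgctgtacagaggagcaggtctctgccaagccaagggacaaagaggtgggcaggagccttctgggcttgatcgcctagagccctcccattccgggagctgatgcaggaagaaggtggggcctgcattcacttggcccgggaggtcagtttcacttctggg
At least 1 match was present in 3.44% of all windows. The second Apobec3 window, at chr15:79894773-79895072, held none. Apobec3 overlaps Cbx7 on the opposite strand, and 8.84% of its 50-base stretches occurred in transcripts of other genes, so its value is uncertain.

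The 5 interferon-stimulated genes with a row, of 14, had TA differences of both signs. Slfn4, a Schlafen gene of the myeloid and interferon response, was the listed one. It rose from 1.61 in WT TA to 3.07 in KO TA, a difference of 1.47 or 2.76-fold, and 11.3% of its 50-base stretches occurred in other genes, foremost Slfn3. The other 4 were not listed for TA. Their differences were 0.96 for Rsad2, 0.37 for Irf7, 0.15 for Tmem140 and -0.36 for Ifit1, with WT TA levels of -1.44, 3.76, 0.28 and -0.02. With a pseudocount of 1 the difference of Rsad2 was 0.33 and that of Ifit1 was -0.17. All 5 had a lower WT level in TA than in AE, with medians of 0.28 and 5.11.

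Cd244 encodes a receptor of the SLAM family found on natural killer cells, some T cells and myeloid cells. It had the largest rise of the listed genes, from -1.82 in WT TA to 1.57 in KO TA, a difference of 3.39 or 10.5-fold from a low start. With a pseudocount of 1 the difference was 1.63. Of 17 leukocyte genes, Cd74 and Ptpn22 were the others with a row. Cd74, the invariant chain of MHC class II, had levels of 7.37 in WT TA and 8.06 in KO TA, and Ptpn22, a phosphatase of lymphocytes, had 0.69 in both. As intestinal epithelium also makes Cd74, and the TA sort had no CD45 gate, the part of leukocytes in the rise of Cd244 was not tested. Cd244 starts at 171559193 on the plus strand of chromosome 1 and lies 23899 bp from Itln1, which is transcribed away from it and rose as well. Cd244 overlaps Ly9 on the opposite strand.

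AC151971.2, annotated by GENCODE as a lincRNA of 2 merged exons on chromosome 9, had no protein product to describe. Its level rose from 1.49 in WT TA to 3.81 in KO TA, a difference of 2.32 or 4.99-fold. This was the second largest rise among the listed genes, after Cd244.

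The listed genes were then read in the other populations. ISC and TA were sorted at the same time by GFP level, so their values are set side by side and not counted as independent. Of the 15 genes, 7 were in no other table, namely Cd244, Gsta3, Slc1a4, Tlr2, B3galt5, Slc1a3 and Apobec3. Whether their differences are particular to TA cells was not tested. For 6 of the 7 the ISC difference lay within 0.5 of the TA difference. Gsta3 differed by 1.43 in ISC and 1.48 in TA, Cd244 by 3.53 and 3.39, Apobec3 by -0.87 and -0.83, and Slc1a3 by -0.84 and -0.90. Tlr2 differed by -1.29 in ISC and -1.55 in TA, and Slc1a4 by 0.62 and 1.10. B3galt5 was the 1 listed gene of the 15 whose sign differed between ISC and TA.

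In AE and CO the listed genes diverged more. The sign was that of TA for 12 of 15 genes in AE and 12 of 15 in CO, and 10 of 15 had 1 sign in all 4 populations. The exceptions in AE were Cd244 at -1.50, Clca4b at -0.29 and B3galt5 at 0.47. The exceptions in CO were Slc1a3 at 0.94, Slfn4 at -0.46 and Cd244. Both CO values of Cd244, -5.29 in WT and -5.33 in KO, were the lowest of their columns, so its sign in CO carries no information. These sign counts were not set against the same counts over all 82 genes. They include Smarcad1, the targeted gene, and genes also listed for other populations, such as Mt1, a row of all 4 tables. The counts are thus a description and not a test of agreement between populations. The TA difference was the largest in size of the 4 populations for 4 of the 15 genes. These were Gsta3, Smarcad1, Tlr2 and B3galt5. The lead was small for Smarcad1, at -0.88 in TA against -0.87 in CO, and for Gsta3, at 1.48 against 1.43 in ISC. Group means without a spread cannot order values this close.

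**Figure D3:**
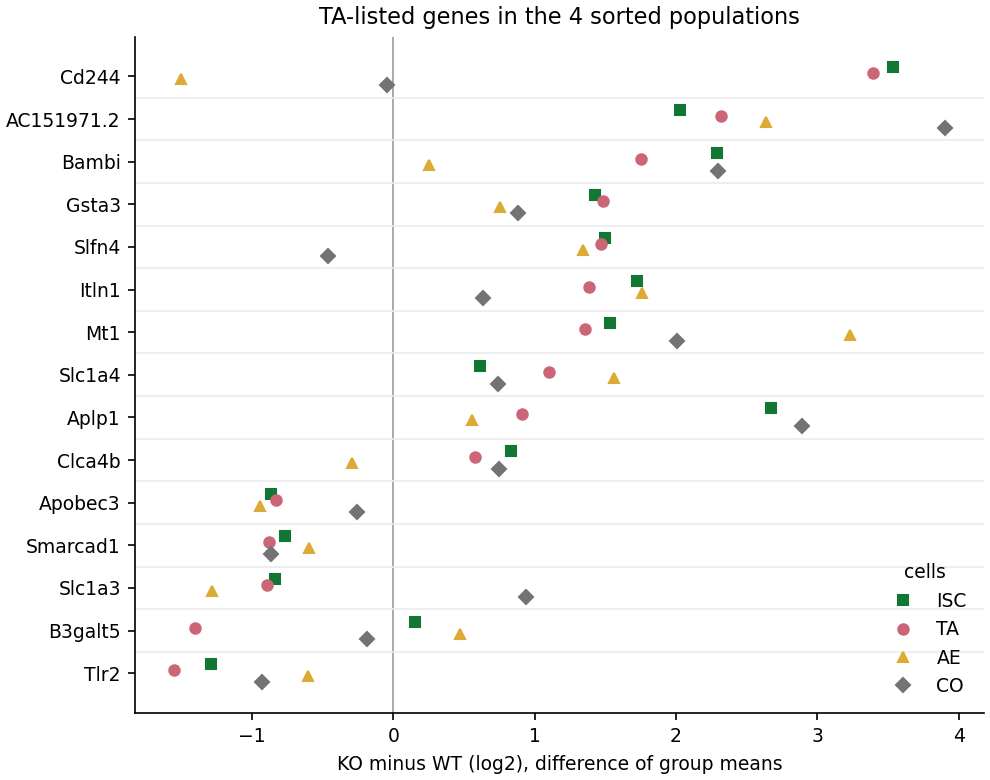
KO minus WT difference of group means (x axis, log2) for the 15 listed genes (y axis) in ISC (squares), TA (circles), AE (triangles) and CO (diamonds). Cd244 sits at 3.53 in ISC and 3.39 in TA but at -1.50 in AE, and B3galt5 is left of 0 in TA at -1.40 and right of 0 in ISC and AE.

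Of the 67 genes not listed for TA, 47 had a higher value in KO TA and 20 a lower one. Most of these differences were small. The median was 0.15, and 48 of the 67 (71.6%) differed by less than 0.5, whereas the smallest listed difference was 0.58. At least 2-fold higher in KO TA were 14 of the 82 genes (17.1%), and 8 of these were listed. At least 2-fold lower were 4 of the 82 (4.88%), and 2 of these were listed. Of the 8 genes at least 2-fold different without a listing, 6 had a WT TA level below 0.

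Bglap3, an osteocalcin gene that belongs to a family made mainly by osteoblasts, had the largest TA difference of all 82 genes without being listed for TA. Its level was -2.87 in WT TA and 3.07 in KO TA, a difference of 5.94, which a pseudocount of 1 reduced to 3.05. Bglap3 was listed for ISC, AE and CO, with differences of 4.69, 5.19 and 3.24. Pmp22, a membrane protein best known from peripheral myelin, had levels of -1.56 in WT TA and 1.75 in KO TA, a difference of 3.31, or 1.70 with a pseudocount of 1. In WT AE the level of Pmp22 was 7.00, and its differences were -0.85 in AE and -2.09 in CO, opposite in sign to that in TA. The ISC difference of Pmp22 was 1.82 and had the sign of that in TA. Khdc1a, chosen after its values were seen, had -4.49 in WT TA and -0.16 in KO TA, a difference of 4.33 that a pseudocount of 1 reduced to 0.86. Pcdh17, chosen in the same way, had -2.92 in WT TA and -5.21 in KO TA, the lowest value of its column, so no fold is given. Lyz1, described above, and AY036118 were the 2 unlisted genes past 2-fold with a WT TA level of at least 0. AY036118, a locus inside a ribosomal RNA gene, had levels of 7.11 in WT TA and 5.81 in KO TA, a difference of -1.30.

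**Figure D4:**
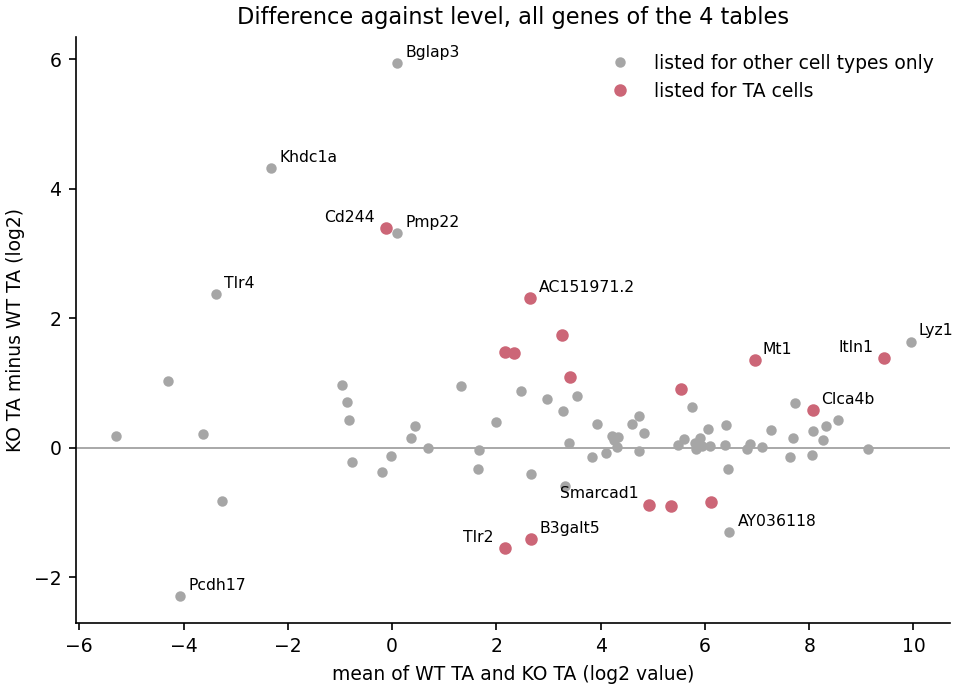
KO TA minus WT TA difference (y axis, log2) against the mean of both TA levels (x axis, log2) for all 82 genes, with the 15 listed genes in red and the 67 others in grey. Most grey points with a level above 0 lie near 0, whereas Bglap3 at 5.94 and Khdc1a, both low in WT TA, lie at the top.

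Of the remaining larger unlisted differences among genes with a value of at least 0 in either TA group, all were positive and below 1. They were 0.95 for Rtn4r, a receptor for myelin-derived inhibitors of axon growth, 0.87 for the transcription factor Sox12, 0.80 for the GTPase Rhoc, 0.75 for the MHC class Ib gene H2-Q1, 0.69 for Cd74 and 0.63 for Mep1a. Rhoc, H2-Q1 and Cd74 were lower in KO CO, with differences of -1.43, -3.57 and -2.55 there. For these 3 genes the sign in TA was thus opposite to that in the colon. Of the 43 genes listed as lower in KO CO and not listed for TA, 31 were higher in KO TA. The share was similar among all 67 genes not listed for TA, of which 47 were higher in KO TA. As the 43 genes were chosen for their sign in CO, whether the signs in TA and colon are linked was not tested. In ISC the differences of Rhoc, H2-Q1 and Cd74 were 0.31, 1.16 and 0.19, with the sign of TA.

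The 6 enterocyte genes used here were rows of the CO table, with lower values in KO CO, and none was listed for TA. Their TA differences were 0.63 for Mep1a, a brush border protease, 0.35 for Clic5, a protein of the microvillus base, 0.34 for the carboxylesterase Ces2e, 0.29 for the cytochrome Cyp2c65, 0.14 for the mitochondrial carnitine carrier Slc25a20 and 0.03 for the sodium-proton exchanger Slc9a2. These 6 values were above 0, as were those of 57 of all 82 genes, and their median was 0.31 against 0.18 over all 82 genes. In ISC the 6 genes also had differences above 0, from 0.15 for Slc9a2 to 0.86 for Cyp2c65. Whether shifts of this size exceed the spread between TA libraries cannot be read from group means.

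Genes of the stem cell programme and of the basement membrane were not listed for TA. Ascl2 had a difference of 0.17 and Fzd5, a Wnt receptor, one of -0.10, and these were the 2 of 14 stem cell genes with a row. Of 11 basement membrane genes, Lama3 and Lamb3, chains of laminin, differed by 0.34 (0.20 with a pseudocount of 1) and 0.01, and Pxdn, a peroxidase that crosslinks collagen IV, by -0.59.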

How the data were processed

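mRNA-seq libraries were made from flow-sorted TA cells, 1000 to 135000 cells per sample, with 15 PCR cycles and 50 bp single reads. Per the submitters' processing notes and the methods, the authors trimmed reads with Trim Galore 0.4.4, aligned them to GRCm38 with HISAT2 2.1.0 and kept unique hits. The authors counted reads over merged transcript isoforms in SeqMonk and tested KO against WT with DESeq2. Whether counting used strand is not given in the sources used here, so genes overlapping another on the opposite strand are uncertain. The deposited values are log2 group means normalised to total reads. A shared lowest value in genes of different length showed that they are not per length. The deposited FDR column holds adjusted p-values of the authors' own comparison and was not used. Rows of the TA table were marked as listed.

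Differences were computed as KO minus WT of the log2 means, for the 82 genes of the 4 tables. Their values were identical wherever tables shared a gene. Structures came from GENCODE M21 (76 of the 82 matched by position, 6 by symbol), with length as merged exons over all isoforms. For each listed gene, 50-base stretches shared with transcripts of other genes on either strand were counted. Promoter windows came from RefSeq (13 of 15 listed genes matched). Python 3.11.15, numpy 2.4.6, pandas 2.3.3 and matplotlib 3.10.9 were used, and scripts were checked on simulated data. Named genes were all 15 listed genes, the 10 unlisted genes with the largest difference among those reaching a log2 value of 0 in KO or WT TA, genes of at least 2 other tables, and members of 20 gene lists with a row. A member of the enterocyte list is not reported here, and the counts and medians of that list leave it out. Members, lists and rule were chosen with earlier results of these data known. Alternatives were a pseudocount of 1, a floor of 0.1 on the linear scale, only genes reaching a log2 value of 0 in KO or WT TA, and only genes with a description.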

Additional observations from a re-analysis of the deposited data

How the results depend on the processing

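No paired analysis was possible because the tables hold 1 mean per group and no value per library, and for the same reason no replicate could be left out. Depth per library is unknown. The counts of listed and unlisted genes in each direction, the counts of genes past 2-fold and the median difference of the unlisted genes stayed within 1.5 times or within 0.1 log2 units of the reported value under every alternative run on them. The median absolute difference of the listed genes was 1.38 and became 1.21 with a pseudocount of 1. The pseudocount also moved the differences of 15 of the 43 named genes by at least 0.1, among them 7 listed genes, such as AC151971.2 from 2.32 to 1.98 and Tlr2 from -1.55 to -1.26. Raising values to at least 0.1 moved the difference of 1 of the 43, Tlr4, from 2.38 to 1.13. Of the genes named outside the rule, it moved Khdc1a from 4.33 to 3.16 and Pcdh17 from -2.29 to -0.40. None of these differences changed its sign under these 2 settings.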
